A study of Mus musculus with 6 samples.

Results

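Raptor knockout islets given Dnmt3a were compared with Raptor knockout islets alone. The comparison used 4 of the 6 libraries of a mouse islet RNA sequencing study, taken by their labels, and 12411 of the 34745 genes in the deposited table. A gene was kept when it reached 1 FPKM (fragments scaled to transcript length and to library size) in at least 2 of the 4 libraries. A gene under 1 FPKM in both libraries of a group could thus pass only through the other group, and then only with the groups apart. All libraries came from isolated islets of C57BL/6 mice aged 8 weeks. The KO group (genotype Beta RapKO, n = 2) and the KO DNMT3A group (Beta RapKO with Dnmt3a expression, written βRapKO+LvDnmt3a in the design, n = 2) both carry the Raptor knockout, so the comparison concerns the added Dnmt3a on that background. The remaining 2 libraries are wild type (WT) and are given only as a reference. In the deposited table the KO and WT columns, but not the KO DNMT3A columns, have GFP in their names, a term left unexplained by the labels. The column names end in 1 and 3 for KO, 2 and 3 for KO DNMT3A and 3 and 6 for WT, and the meaning of these numbers is not stated. The labels name neither the Cre driver of the knockout nor the promoter of the Dnmt3a construct, nor do they state if both libraries of each group represent different animals. A p-value here therefore reflects only the scatter of these particular libraries, part or all of which may be technical. Throughout, values are given for replicate 1 and then replicate 2.

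Raptor is the subunit that recruits substrates to mTOR complex 1, the nutrient-sensing kinase complex that drives protein synthesis and cell growth; in beta cells it supports insulin production and the adult beta cell program. Dnmt3a is a de novo DNA methyltransferase that places methyl groups on cytosines of CpG dinucleotides, and in beta cells it is known for silencing genes of the immature or neighbouring cell programs, such as those for hexokinases and lactate handling. Islets are mixed tissue, with beta, alpha, delta and PP cells together with duct cells, vessels, fibroblasts and resident macrophages. In such bulk RNA, fewer cells of a type and less RNA per cell cannot be told apart.

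One of the KO libraries stood apart. Insulin transcripts (Ins1 and Ins2) made up 16.5% and 23.6% of all FPKM in the KO DNMT3A libraries and 30.5% in KO replicate 1, but 0.109% in KO replicate 2, which had 50.9% of FPKM in mitochondrially encoded genes against 16.5% to 26.3% in the other three. That library goes against its islet label on the defining beta cell marker, and WT replicate 1 did so too, at 0.17% insulin. Depth, inferred from the step between the FPKM values of genes with a single transcript, was 1920319 and 1117570 fragments in KO DNMT3A and 1425978 and 780488 in KO. Exocrine acinar genes were nearly absent: 18 of 20 missed the expression filter. Several list medians and gene differences that rest on KO replicate 2 are therefore also given without it, but not all of them. Groups are named as labelled.

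The targeted genes were read first. Rptor, which encodes Raptor, was at 0.714 and 1.93 FPKM in KO DNMT3A, 0.378 and 1.51 in KO and 0.8 and 1.06 in WT. The KO values lay on both sides of the WT values, so gene-level Rptor RNA did not separate the knockout from wild type; whether the deleted exons were covered was not examined. Dnmt3a (chr12:3806007-3914443, GRCm38) was at 3.62 and 3.80 FPKM in KO DNMT3A, from about 67.3 and 41.1 inferred fragments, and at 3.19 and 2.50 FPKM in KO, from 44.1 and 18.9. Both KO DNMT3A libraries were the higher ones, but the difference of 0.30 on the log2(FPKM + 1) scale was smaller than its standard error of 0.47 (limma, n = 2 per group, adjusted p = 1.0), and WT spanned 2.94 to 4.43 FPKM. Whether reads of the introduced construct are counted in this value is not given in the sources used here.

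The other DNA methyltransferases and the proteins that read or remove methylation were mostly a little higher with added Dnmt3a. Of 23 such genes 17 passed the filter, 15 of these had a higher mean in KO DNMT3A, and for 8 both KO DNMT3A libraries lay above both KO libraries, against 17.3% of all genes tested. The maintenance methyltransferase Dnmt1 was at 5.39 and 6.45 FPKM in KO DNMT3A and 3.19 and 4.82 in KO, a log2 difference of 0.48 ± 0.50 (SE). Besides Dnmt3a and Dnmt1, those in that position included the methyl-CpG binding proteins Mbd1 and Mbd2, the DNA glycosylase Tdg, the demethylation-linked Gadd45b and the corepressor Trim28. The second de novo enzyme, Dnmt3b, stayed below the filter at 0.868 and 1.29 FPKM against 0.546 and 0.855, and the cofactor Dnmt3l was at 0 in all 4 libraries. The groups overlapped for the dioxygenases that oxidise methylcytosine: Tet2 was at 1.01 and 1.10 FPKM in KO DNMT3A and 1.22 and 0.898 in KO, and Tet3 at 2.89 and 5.11 against 2.24 and 4.43. The median log2 difference over the 17 genes was 0.297, but after median scaling or quantile normalization it was 0.102 or 0.096, and 1 or 0 members lay above.

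Across the transcriptome, no gene passed limma's adjusted p threshold of 0.05 (0 of 12411, 0%), and 222 genes had an unadjusted p under 0.05, of which 168 were higher in KO DNMT3A. The smallest adjusted p was 0.987, for Orm1, and it was 1.0 for all other genes named here. Without KO replicate 1, which leaves the insulin-poor library as the only KO library, 79 genes passed, 75 of them higher; without KO replicate 2 none did (180 at an unadjusted p under 0.05). With 2 libraries against 2, an exact permutation test cannot give a p below 0.33. The levels are therefore described by whether the libraries of the groups overlap. Both KO DNMT3A libraries exceeded both KO libraries for 2149 genes (17.3%) and fell short of both for 637 (5.13%). With a gap of at least 2-fold in FPKM + 1 between the nearest libraries, 107 genes were higher (0.862%) and 38 lower (0.306%), of which 60 and 24 were protein-coding. Many of these were at 0 in both libraries of the lower group and passed the filter only through the other group. Their order and their 2-fold gap were thus fixed by the filter. Some rest on very few fragments, such as Gm16024 with 1 inferred fragment in each KO DNMT3A library. All genes together were shifted: the median log2 difference was 0.191 and 68.9% of means were higher in KO DNMT3A and 31.1% lower. Median scaling or quantile normalization removed the shift and brought the higher share of the non-overlapping genes from 77.1% to 52.1% or 51.5%, and of those with the 2-fold gap from 73.8% to 50% or 40.4%. List medians below are to be read against 0.191.

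**Figure D1:**
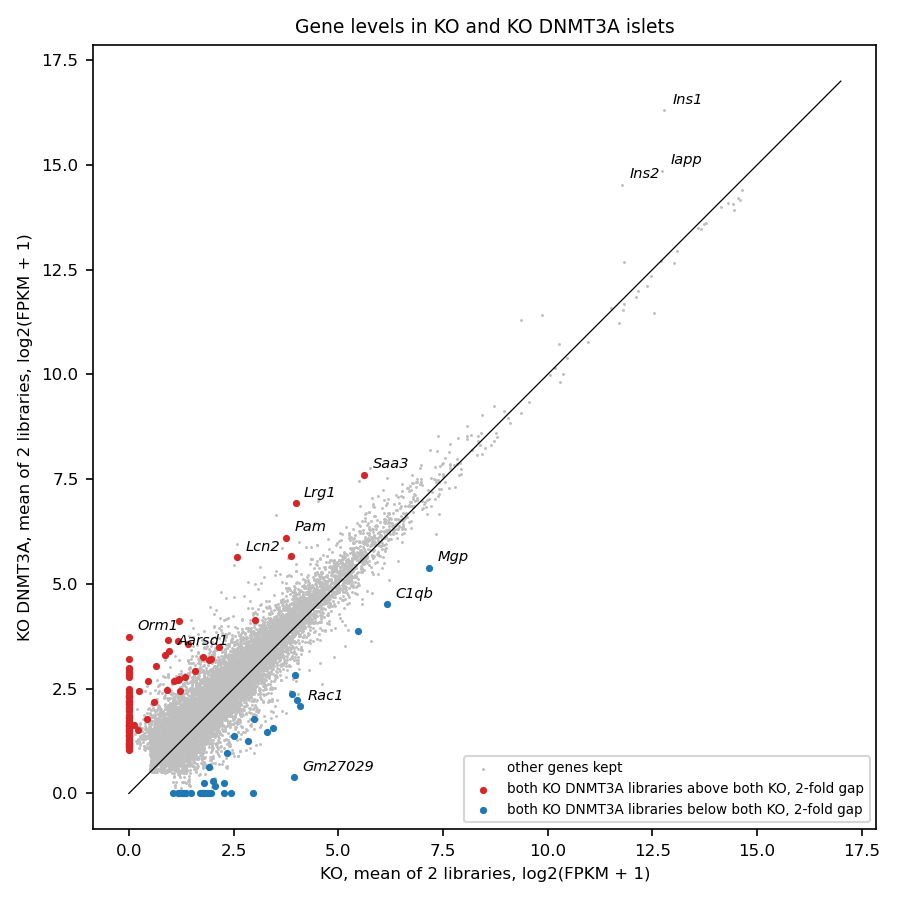
Mean log2(FPKM + 1) of the 2 KO libraries (horizontal) against that of the 2 KO DNMT3A libraries (vertical) for each of the 12411 genes kept; red and blue points are genes whose groups were separated by at least 2-fold, above and below. Saa3, Lrg1 and Lcn2 stand out above the diagonal and Mgp, C1qb and Rac1 below it, while Ins1, Ins2 and Iapp lie above it with overlapping groups.

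The clearest group among the higher genes was that of acute-phase and secreted defence proteins, which tissues release during inflammation. Of 30 listed genes 17 passed the filter, and for 14 of these (82.4%, against 17.3% of all genes) both KO DNMT3A libraries lay above both KO libraries, 7 of them by at least 2-fold, a gap found in 0.862% of all genes. The single member in the opposite position was the protease inhibitor Serpina3g, at 0.469 and 0.806 FPKM against 1.26 and 1.15. Serpina3g passed the filter only through KO. Orm1 and Saa1, at 0 in both KO libraries, passed only through KO DNMT3A and are among the 14 and the 7. The position of these genes was therefore fixed by the filter. The median log2 difference of the 17 was 1.715 against 0.191 for all genes. It was 0.905 without KO replicate 2, against 0.065 for all genes, and 14 members then lay above KO replicate 1, against 33.3% of all genes.

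The sequences upstream of the RefSeq starts of 4 of these genes are printed because their levels led the comparison and because C/EBP factors are known regulators of acute-phase genes. They are the 250 bases before the start (RefSeq, GRCm38.p6), 5′ to 3′ on the gene's strand, with matches to the C/EBP letters TTGCNNAA, or TTNNGCAA on the other strand, in capitals.
Saa3, chr7:46715677-46715926, minus strand: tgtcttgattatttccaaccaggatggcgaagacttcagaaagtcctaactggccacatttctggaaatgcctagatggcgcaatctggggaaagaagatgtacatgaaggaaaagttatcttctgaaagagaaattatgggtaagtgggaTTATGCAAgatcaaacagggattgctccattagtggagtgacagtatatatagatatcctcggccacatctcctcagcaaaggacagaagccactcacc
Lcn2, chr2:32387740-32387989, minus strand: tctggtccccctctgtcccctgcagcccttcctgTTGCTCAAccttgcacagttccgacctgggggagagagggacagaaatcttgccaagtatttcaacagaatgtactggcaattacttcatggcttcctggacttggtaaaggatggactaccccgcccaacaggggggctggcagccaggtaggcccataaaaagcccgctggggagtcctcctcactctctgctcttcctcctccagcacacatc
Slpi, chr2:164356508-164356757, minus strand: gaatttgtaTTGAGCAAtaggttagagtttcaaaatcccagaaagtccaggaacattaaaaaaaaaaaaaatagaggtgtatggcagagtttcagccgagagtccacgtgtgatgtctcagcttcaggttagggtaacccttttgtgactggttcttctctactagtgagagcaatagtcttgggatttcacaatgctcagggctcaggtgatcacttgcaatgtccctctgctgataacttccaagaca
Lrg1, chr17:56121947-56122196, minus strand: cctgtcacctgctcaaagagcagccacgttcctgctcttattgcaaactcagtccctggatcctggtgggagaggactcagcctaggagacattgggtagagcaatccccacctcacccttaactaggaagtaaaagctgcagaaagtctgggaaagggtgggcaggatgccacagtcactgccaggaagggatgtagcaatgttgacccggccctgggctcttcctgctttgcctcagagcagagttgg
Such a match is in 9.56% of 32851 windows of this length. Saa3 holds 1 match that begins 99 bases before the start, Lcn2 1 at 216 bases and Slpi 1 at 241 bases, and Lrg1 holds none. Of the 12 kept members with an entry in the table, 7 held a match, namely C3, Cp, Fgb, Lcn2, Saa1, Saa3 and Slpi. A gene was counted if any of its windows matched, so counts of genes and shares of windows differ in unit. Fewer members held the letters TTCNNNGAA of STAT factors, which read the same on both strands (2 of 12, against 7.02% of windows). The windows are poor in CpG, the substrate of Dnmt3a: Saa3 and Lcn2 have 3 CpG each and Slpi and Lrg1 2 each, where the median window has 6. A match is a description of letters, and methylation was not measured here.

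Orm1, which encodes the plasma carrier orosomucoid, reached 13.4 and 11.5 FPKM with added Dnmt3a, from 20 and 10 inferred fragments, while all KO and WT libraries had it listed at 0. The 0 in WT replicate 1 carries little information, since that library held 244769 inferred fragments and 1 fragment of a 2-kilobase transcript is worth 2.04 FPKM there. Saa3, a serum amyloid A protein made outside the liver, was at 189 and 199 FPKM in KO DNMT3A, 34.3 and 67.6 in KO and 92.3 and 75.4 in WT. It was the most abundant member in KO DNMT3A, with tight replicates, and its log2 difference of 1.99 ± 0.68 (SE) was 2.46 without KO replicate 2 and 1.51 without KO replicate 1. The liver-type Saa1 reached 1.72 and 2.96 FPKM with added Dnmt3a and likewise was at 0 in the other 4 libraries.

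Lrg1, a secreted leucine-rich glycoprotein of the acute phase, was at 170 and 86.1 FPKM in KO DNMT3A, 36.3 and 5.69 in KO and 6.05 and 18.2 in WT. Lcn2, lipocalin 2, which starves bacteria of iron by binding siderophores, was at 66.0 and 36.4 FPKM against 14.6 and 1.32 in KO and 20.1 and 13.5 in WT. In both genes KO replicate 2 was the lowest of the 4 libraries by far and set much of the mean difference. The log2 difference of Lrg1 was 2.95 ± 0.94 with all libraries and 1.71 without KO replicate 2, and that of Lcn2 was 3.06 ± 0.95 and 1.69.

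The antiprotease Slpi, which protects epithelia from leukocyte elastase, was at 19.8 and 13.5 FPKM in KO DNMT3A and 4.24 and 0 in KO. Sftpd, a collectin that binds microbial sugars, was at 15.3 and 8.77 FPKM against 2.64 and 0. Both were listed at 0 in KO replicate 2, the insulin-poor and shallowest of the 4, where 1 fragment of a 2-kilobase transcript is worth 0.641 FPKM, and both KO DNMT3A values also exceeded KO replicate 1. Further members with both KO DNMT3A libraries above were the complement component C3 (5.32 and 3.15 FPKM against 1.98 and 0.677), the immunoglobulin transporter Pigr (12.3 and 10.6 against 5.63 and 3.43), the antiprotease Serpina3n (12.6 and 11.7 against 7.13 and 1.86), the copper carrier Cp (2.99 and 2.20 against 1.01 and 0.438), the fibrinogen chains Fgg and Fgb, and the beta-defensin Defb1 (41.8 and 31.8 against 22.5 and 11.8). The groups overlapped for the complement genes Cfb, at 130 and 28.1 FPKM against 34.9 and 0, and Cfi. Of the 13 members below the filter, Wfdc2 and Ltf were at 15.6 and 2.16 FPKM in KO DNMT3A replicate 1 and at 0 in the other 3 libraries.

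**Figure D2:**
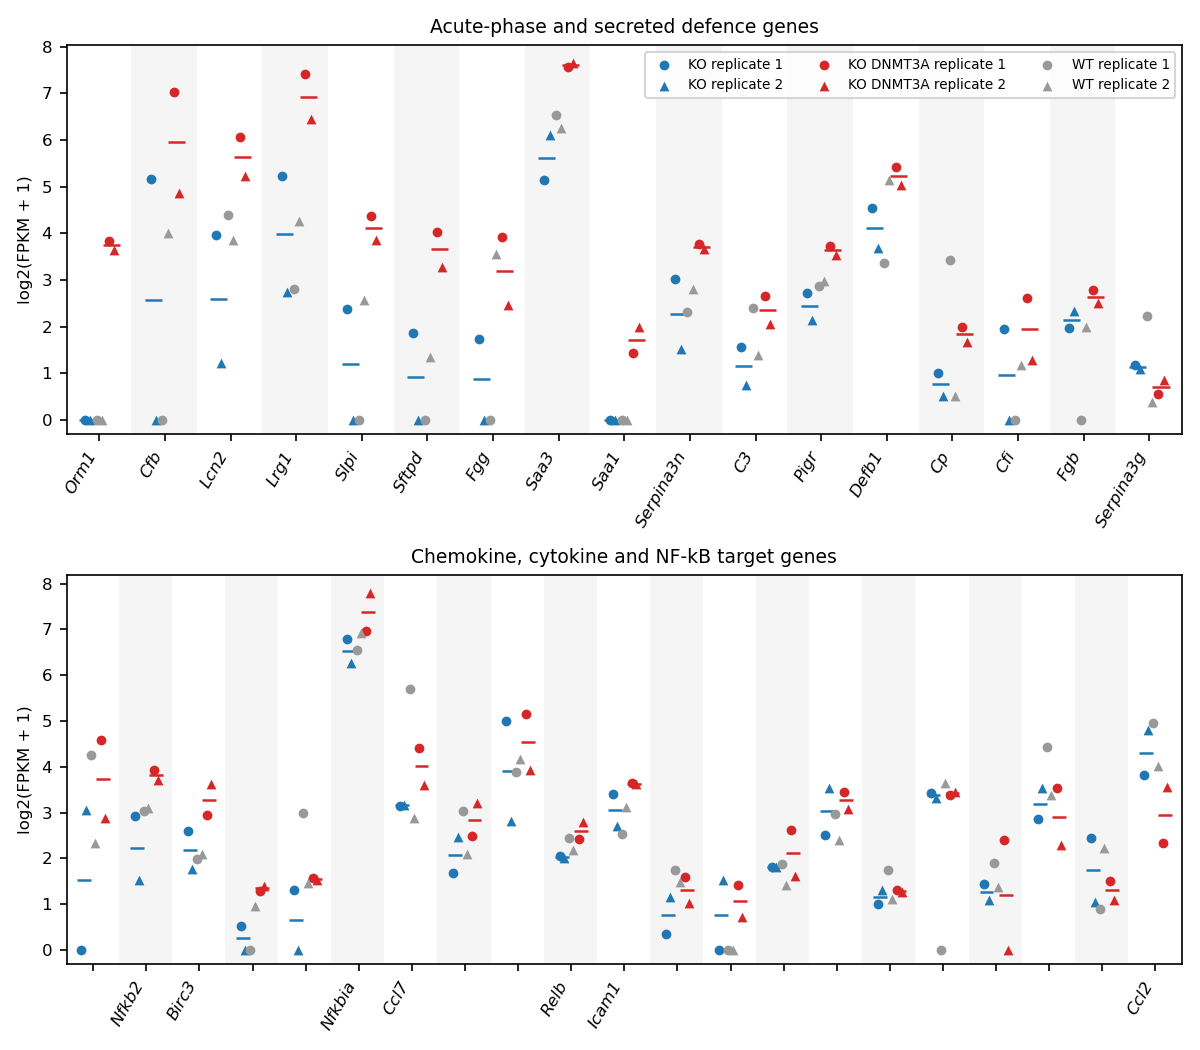
FPKM as log2(FPKM + 1) in each library for the kept acute-phase and secreted defence genes (top) and chemokine, cytokine and NF-kB target genes (bottom); bars mark group means of KO (blue) and KO DNMT3A (red), and WT is grey, and genes named in the text are labelled. Red symbols lie above both blue ones for 14 of 17 genes in the top panel and 9 of 21 in the bottom panel.

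Duct epithelial cells, which also secrete several such proteins, had uneven markers. The 13 kept duct genes of 16 all had a higher mean in KO DNMT3A and a median log2 difference of 1.04, but this rested on KO DNMT3A replicate 1: without it the median was 0.121. Summed, these genes reached 1835 and 467 FPKM in KO DNMT3A and 648 and 374 in KO, and none of them was at 0 in these 4 libraries. The keratin Krt19 was at 94.6 and 2.30 FPKM against 2.70 and 1.10, and the secreted chaperone Clu at 259 and 29.0 against 33.7 and 12.7, so 1 library was high and the groups overlapped. Only the mucin Muc1 had both KO DNMT3A libraries above, at 18.2 and 3.33 FPKM against 0.782 and 1.91. The regenerating islet-derived genes Reg1 and Reg3b were at 8.98 and 13.3 FPKM in that same library and at 0 in the other 3. The median of the defence list was 1.587 without KO DNMT3A replicate 1. The part of duct cells in the defence list was not tested.

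Chemokines, cytokines and targets of NF-kB, the transcription factor family that relays inflammatory signals, had smaller differences. For 9 of the 21 kept genes (42.9%, against 17.3% of all genes) both KO DNMT3A libraries lay above both KO libraries, and the median was 0.567 (0.549 without KO replicate 2). Nfkb2, an NF-kB subunit of the noncanonical arm, was at 14.2 and 12.2 FPKM in KO DNMT3A, 6.63 and 1.89 in KO and 7.24 and 7.59 in WT, with KO DNMT3A the highest group (log2 difference 1.59 ± 0.62, or 0.89 without KO replicate 2). Its partner Relb was at 4.33 and 5.99 FPKM against 3.17 and 3.01, and the anti-apoptotic target Birc3 at 6.73 and 11.3 against 5.09 and 2.42. The inhibitor Nfkbia was at 123 and 221 FPKM against 109 and 76.4, and the adhesion molecule Icam1 at 11.5 and 11.3 against 9.66 and 5.55. Among the chemokines, Ccl7 (20.2 and 11.2 FPKM against 7.88 and 8.00) had the same order, whereas the monocyte attractant Ccl2 had the opposite one, at 4.09 and 10.8 FPKM against 13.2 and 26.8. The feedback inhibitor Socs3, an immediate early gene induced by cytokines, was at 21.1 and 20.1 FPKM against 16.2 and 4.68, and Fos at 14.8 and 11.8 against 2.40 and 7.10. Without KO replicate 2 the log2 difference of Socs3 went from 1.13 to 0.33 and that of Fos from 1.44 to 2.06. Immediate early genes as a list had 2 of 18 above (11.1%, against 17.3% of all genes), 0 below and a median of 0.161.

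Interferon-stimulated genes stood nearer the background, with 6 of 23 above (26.1%, against 17.3% of all genes), 1 below (4.35%, against 5.13%) and a median of 0.25. After scaling 1 or 2 lay above, against 10.4% of all genes. Irgm1, a GTPase of cell-autonomous immunity, was at 5.35 and 3.31 FPKM in KO DNMT3A and 2.40 and 1.05 in KO, while the antiviral Rsad2 was at 0.861 and 0.925 against 1.74 and 1.32. Rsad2, the 1 member below, passed the filter only through KO, so it could only come out lower. MHC class I presentation genes had 4 of 15 above (26.7%, or 1 or 2 genes after scaling, against 17.3% and 10.4% of all genes) and a median of 0.633, which was -0.069 without KO replicate 2. The peptide transporter subunit Tap2 was at 12.8 and 8.01 FPKM against 7.85 and 3.11. MHC class II genes, which mark antigen-presenting cells, had 2 of 7 below (28.6%, against 5.13% of all genes). Their median of -0.383 became 0.132 without KO replicate 1. H2-Eb1 was at 0.88 and 3.02 FPKM against 7.70 and 3.25, and the invariant chain Cd74 at 9.88 and 9.38 against 30.5 and 11.5. T and B lymphocyte genes were close to absent: 0 of 15 passed the filter, and the highest values in the 4 libraries were Igkc at 5.27 FPKM in KO replicate 1 and Trbc2 at 1.51 in KO DNMT3A replicate 1.

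Macrophage genes formed the clearest group among the lower genes. Of 20 listed genes 15 passed the filter, 14 had a lower mean in KO DNMT3A, and for 10 (66.7%) both KO DNMT3A libraries lay below both KO libraries, against 5.13% of all genes tested. The median log2 difference was -0.901, and it was -1.164 without KO replicate 2 and -1.089 without KO replicate 1. The summed level of the 15 genes was 311 and 197 FPKM in KO DNMT3A, 618 and 413 in KO and 708 and 593 in WT, so KO and WT were the higher groups. None of the 15 was at 0 in any library.

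The starts of the complement C1q genes are shown because C1qb and C1qc, whose products assemble with C1qa into the recognition molecule of the classical complement pathway and are made largely by macrophages, had the wide gaps. They are again the 250 bases before the RefSeq start (GRCm38.p6), with the PU.1 letters GAGGAAGT, or ACTTCCTC on the other strand, in capitals. PU.1 is the master transcription factor of myeloid cells.
C1qc, chr4:136892915-136893164, minus strand: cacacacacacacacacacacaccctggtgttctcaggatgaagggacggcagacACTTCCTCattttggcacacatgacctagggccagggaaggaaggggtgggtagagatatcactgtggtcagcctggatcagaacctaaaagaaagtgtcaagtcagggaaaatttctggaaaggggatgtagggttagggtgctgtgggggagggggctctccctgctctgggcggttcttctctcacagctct
C1qb, chr4:136886201-136886450, minus strand: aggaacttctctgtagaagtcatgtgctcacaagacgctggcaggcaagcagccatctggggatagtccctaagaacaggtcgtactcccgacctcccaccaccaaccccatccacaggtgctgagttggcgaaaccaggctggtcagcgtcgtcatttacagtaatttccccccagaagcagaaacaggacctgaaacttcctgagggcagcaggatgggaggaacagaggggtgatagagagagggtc
C1qc holds 1 match that begins 195 bases before the start and C1qb none, against 2.44% of all windows. They have 2 and 6 CpG. Of the 9 kept macrophage genes with an entry, C1qc was the only one with a match.

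C1qb was at 21.1 and 23 FPKM in KO DNMT3A, 83.1 and 60.1 in KO and 93.9 and 70.8 in WT. C1qc was at 3.88 and 4.58 FPKM, 19.3 and 10.1, and 26.6 and 10 in the same order. For both genes the KO DNMT3A libraries were the lowest 2 of the 6, with log2 differences from KO of -1.64 ± 0.61 and -1.53 ± 0.55. C1qa did not share this: it was at 63.1 and 46.5 FPKM against 146 and 32.0 in KO, so KO replicate 2 was the lowest library. The sign of its difference, -0.34, turned to 0.74 without KO replicate 1.

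Tyrobp, the signalling adaptor DAP12 of myeloid receptors, was at 12.9 and 14.3 FPKM in KO DNMT3A, 52.2 and 36.3 in KO and 58.0 and 58.3 in WT. The lysosomal membrane protein gene Laptm5 was at 2.83 and 2.11 FPKM against 6.73 and 7.19 in KO, and the lysozyme gene Lyz2 at 105 and 50.2 against 169 and 154. Apoe, the lipid carrier of macrophages and other cells, was at 9.96 and 7.36 FPKM against 19.2 and 43.8. In each of these the KO DNMT3A libraries were both below KO. So were those of Cd68 (6.30 and 3.46 FPKM against 9.50 and 11.2), of the growth factor receptor Csf1r (1.42 and 1.22 against 2.27 and 3.93) and of the microglial and macrophage marker Aif1 (4.06 and 5.30 against 6.78 and 12.8). Among members left out by the filter, the chemokine receptor Cx3cr1 was at 0.303 and 0.520 FPKM against 3.16 and 0.930. Ptprc (0.464 and 0.232 against 0.703 and 0.57) and Trem2 (0.511 and 0.439 against 0.802 and 0.838) had the same order. Itgam had the opposite order (0.145 and 0.372 against 0 and 0), and Mrc1 was at 0.84 and 0 against 0 and 0. Among the kept genes the exception in mean was the lipopolysaccharide receptor Cd14, at 36.8 and 3.42 FPKM against 7.58 and 5.71. It was high in the same KO DNMT3A library as the duct genes.

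Genes of stellate cells and fibroblasts were lower as well, less uniformly. Of 23 kept genes 19 had a lower mean and 9 (39.1%, against 5.13% of all genes) had both KO DNMT3A libraries below both KO libraries, with a median of -0.585 (-0.530 without KO replicate 2). This leaned on KO DNMT3A replicate 2, without which the median was -0.024. Summed, these genes reached 720 and 373 FPKM in KO DNMT3A and 719 and 905 in KO. Mgp, matrix Gla protein, an inhibitor of calcification, was the abundant gene with the widest gap, at 40.7 and 41.0 FPKM in KO DNMT3A, 123 and 166 in KO and 64.4 and 75.6 in WT. KO DNMT3A was the lowest and KO the highest group, and the log2 difference of -1.79 ± 0.64 lay between -2.0 and -1.57 with each library left out in turn. Fibronectin Fn1 was at 6.22 and 3.07 FPKM against 10.4 and 17.4, the stellate cell globin Cygb at 17.9 and 10.7 against 27.1 and 50, and the proteoglycan Lum at 9.29 and 3.02 against 17.9 and 12.3. Col8a1, a short-chain collagen of vessel walls, was at 2.14 and 1.40 FPKM against 12.1 and 6.52, and the pericyte Notch effector Heyl at 4.72 and 2.19 against 12 and 8.70. The fibrillar collagen Col1a1 overlapped, at 163 and 82.1 FPKM against 90.6 and 136, with a log2 difference of 0.06 that became -0.14 or -0.10 after scaling. Endothelial genes had 2 of 11 below (18.2%, against 5.13% of all genes) and a median of -0.237. Among them was the fenestral diaphragm gene Plvap (8.01 and 5.77 FPKM against 22.3 and 10.8). Schwann cell genes had a median of -0.122 with 2 above (18.2%) and 1 below (9.09%) of 11, against 17.3% and 5.13% of all genes.

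**Figure D3:**
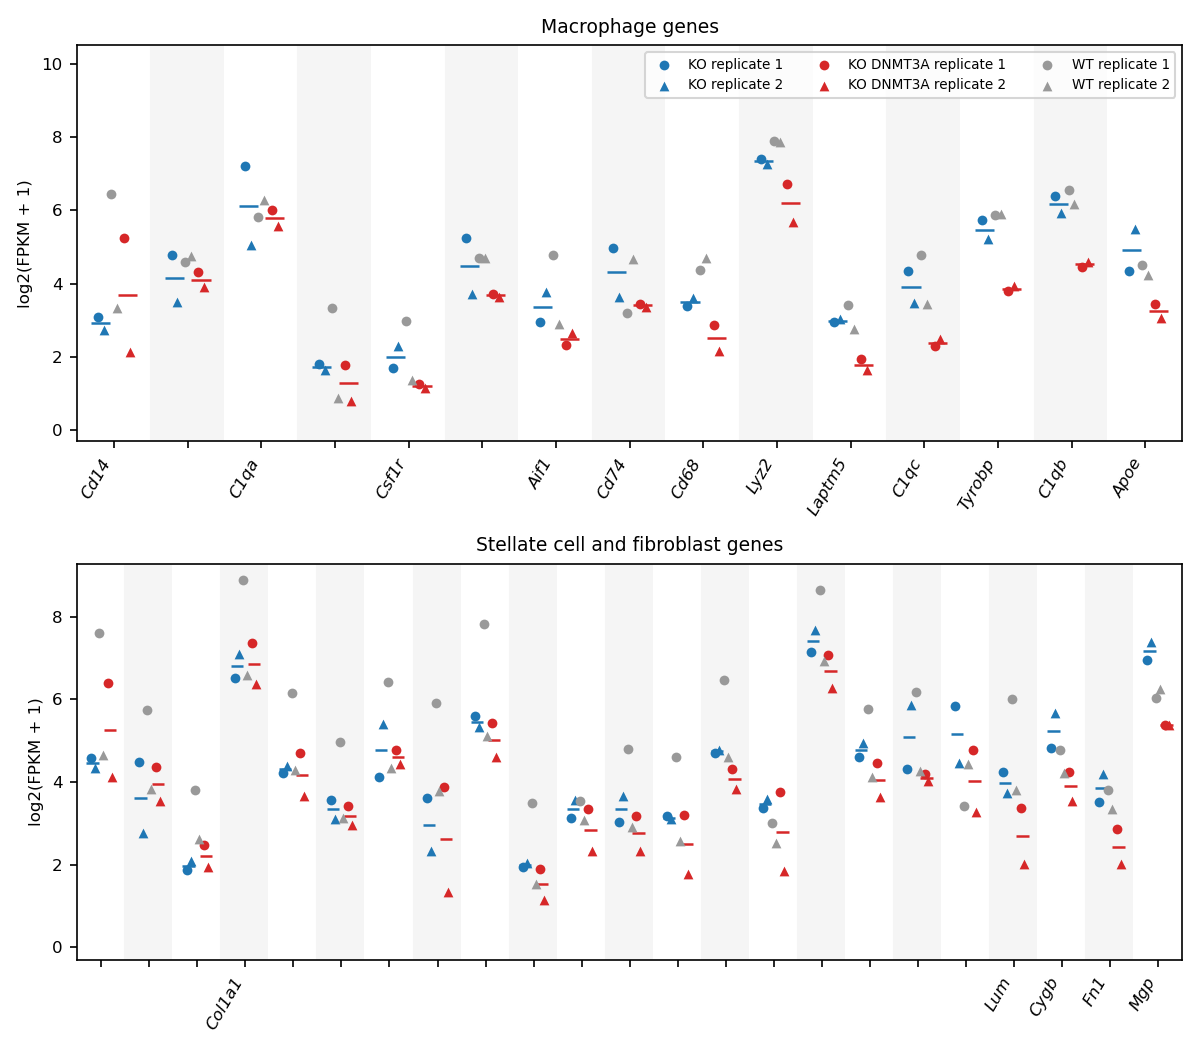
FPKM as log2(FPKM + 1) in each library for the kept macrophage genes (top) and stellate cell and fibroblast genes (bottom), with group means as bars; KO is blue, KO DNMT3A red and WT grey, and genes named in the text are labelled. Red symbols lie below both blue ones for 10 of 15 macrophage genes and 9 of 23 stromal genes.

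Genes of the mature beta cell had higher means in KO DNMT3A, but their groups mostly overlapped, with KO replicate 1 high and KO replicate 2 low. All 28 kept genes of 30 had a higher mean (25 after either scaling), 7 (25.0%, against 17.3% of all genes) had both KO DNMT3A libraries above, and the median was 0.832. Against KO replicate 2 alone 27 of 28 lay above, while against KO replicate 1 alone 7 lay above and 11 below, with a median of -0.251. Of all genes, 49.2% lay above KO replicate 2, while 33.3% lay above and 22.4% below KO replicate 1. Ins1 was at 65360 and 100107 FPKM in KO DNMT3A and 119077 and 416 in KO, so KO replicate 1 was the highest library and KO replicate 2 the lowest. The log2 difference of Ins1 was 3.52 ± 2.42 with all libraries and -0.56 without KO replicate 2. Ins2 (19193 and 29082 FPKM against 43715 and 277) and the amylin gene Iapp (39508 and 22491 against 54683 and 841) had the same order. Ucn3, the beta cell maturity peptide, was at 189 and 119 FPKM against 205 and 20.8, and the glucose transporter Slc2a2 at 6.72 and 8.03 against 10.8 and 0.719. The transcription factor gene Mafa was below the filter at 0.965 and 2.49 FPKM in KO DNMT3A, 0.649 and 0 in KO and 0 and 2.85 in WT.

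The 7 mature beta cell genes that did separate differed by moderate amounts. Ptprn2, a granule membrane protein, was at 8.20 and 10.1 FPKM in KO DNMT3A and 5.37 and 5.18 in KO, with WT at 2.54 and 7.02, and its log2 difference of 0.69 ± 0.50 was 0.66 without KO replicate 2. KO DNMT3A was thus the higher group by a similar amount with and without that library. The calcium sensor Syt7 was at 26.6 and 53.3 FPKM against 22.3 and 24.1, and Ptprn, the paralog of Ptprn2, at 102 and 162 against 94.7 and 54.7. Others were Abcc8, the sulfonylurea receptor of the ATP-sensitive potassium channel, the incretin receptor Gipr and the pyruvate carboxylase gene Pcx. After median scaling 3 of the 28 were above and after quantile normalization 4, a share near the 10.4% of all genes under either.

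Beta cell transcription factors followed the same pattern with smaller differences: 16 of 18 means were higher, against 68.9% of all genes. For 4 genes (22.2%, against 17.3% of all genes) both KO DNMT3A libraries lay above. The median was 0.476, or 0.153 without KO replicate 2. After median scaling or quantile normalization 3 lay above, 2 or 1 below, and 13 or 14 means were higher. The Krüppel-like factor Glis3 was at 3.45 and 3.26 FPKM against 2.21 and 1.66, the zinc finger factor St18 at 12.6 and 13.7 against 11.4 and 5.42, and Neurod1, a driver of endocrine fate and insulin transcription, at 205 and 179 against 169 and 67.1. The fourth was Hnf4a. Without KO replicate 2 the log2 differences of St18 and Neurod1, 0.66 and 0.84, were 0.19 each.

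The genes that mature beta cells keep silent, including targets that Dnmt3a is known to repress, were not uniformly lower with added Dnmt3a. Of the 18 kept genes 9 had a higher and 9 a lower mean, and the median of 0.036 became -0.159 or -0.194 after scaling. The KO DNMT3A libraries pointed opposite ways: without replicate 1 the median was -0.382, with 11 of 18 below and 0 above KO, and without replicate 2 it was 0.486, with 10 above and 1 below. Among all genes 36.3% lay above and 19.7% below without replicate 1, and 43.0% and 18.1% without replicate 2. Ndrg2, a growth-restraining protein, was the only member with both KO DNMT3A libraries below, at 4.83 and 1.24 FPKM against 7.80 and 13.7. Lactate dehydrogenase Ldha was at 20.8 and 4.29 FPKM in KO DNMT3A and 13.3 and 13.4 in KO, so its KO DNMT3A libraries lay on either side of KO. The lactate carrier Slc16a1 was below the filter, at 3.06 and 0.606 FPKM against 0.475 and 0.289.

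The other islet hormones did not separate the groups. Glucagon Gcg was at 1932 and 1592 FPKM in KO DNMT3A and 1623 and 2454 in KO, somatostatin Sst at 4036 and 10846 against 4873 and 2736, and pancreatic polypeptide Ppy at 9269 and 14437 against 18361 and 8399. The groups overlapped in all 3 hormones; for Ppy the KO libraries lay on either side of both KO DNMT3A libraries. Alpha cell genes had 0 of 12 separate in either direction, against 17.3% above and 5.13% below among all genes. Their median was 0.06 (-0.135 or -0.143 after scaling), which was -0.327 without KO replicate 1 and 0.483 without KO replicate 2. Delta, PP and epsilon cell genes had 2 of 9 above (22.2%, against 17.3% of all genes) and a median of 0.181 (-0.014 or -0.027 after scaling). The 2 were the retinol carrier Rbp4 (67.9 and 89.0 FPKM against 47.0 and 59.3) and the transcription factor Etv1. Endocrine progenitor and immature genes had 0 of 13 separate in either direction, against 17.3% above and 5.13% below among all genes. Their median was 0.08 (-0.115 or -0.139 after scaling), which was 0.674 without KO replicate 1 and -0.513 without KO replicate 2.

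**Figure D4:**
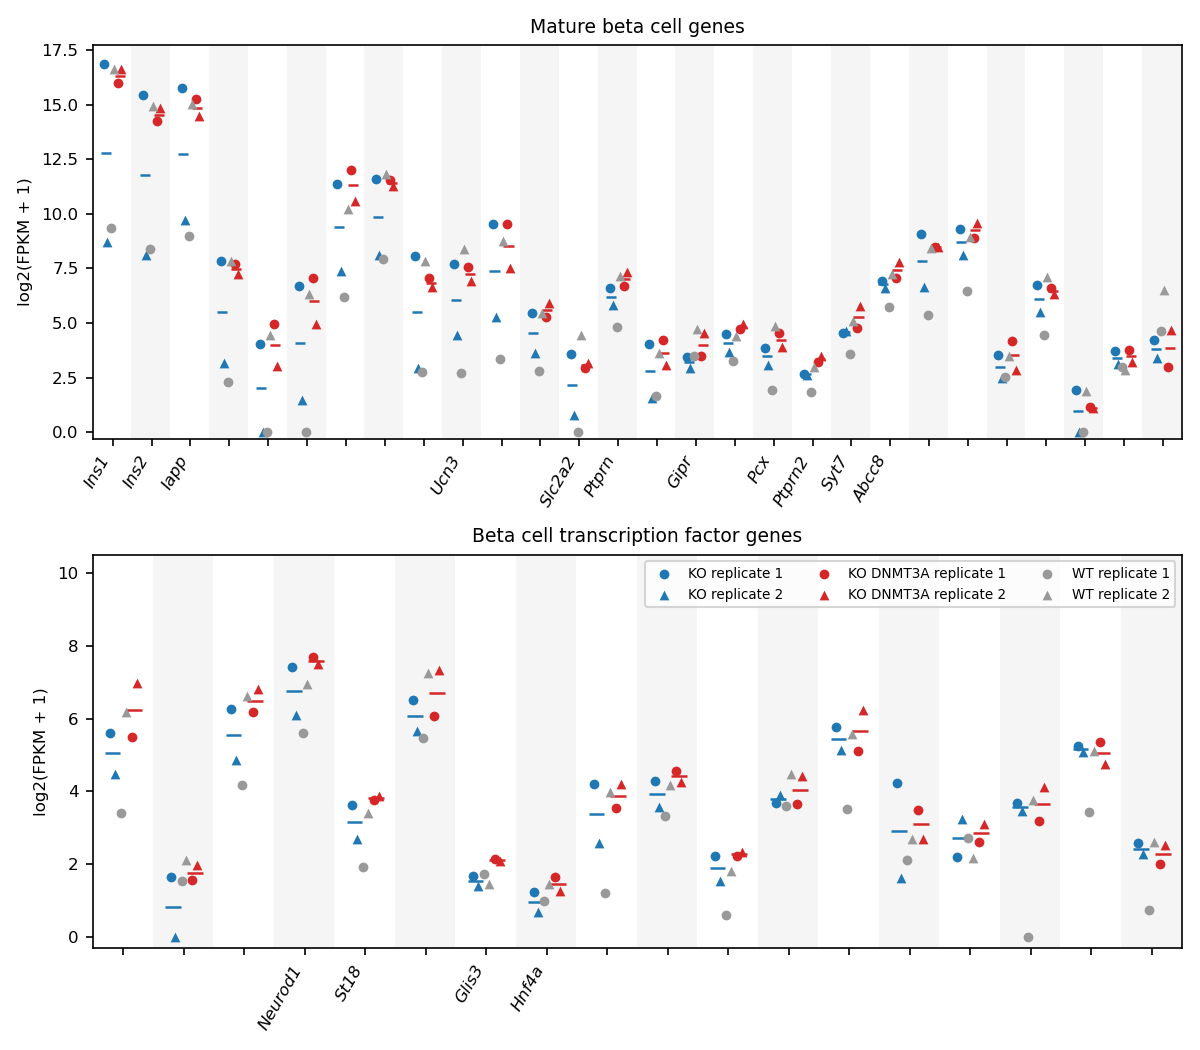
FPKM as log2(FPKM + 1) in each library for the kept mature beta cell genes (top) and beta cell transcription factors (bottom), with group means as bars; KO is blue, KO DNMT3A red and WT grey, and genes named in the text are labelled. For Ins1, Ins2 and Iapp the 2 KO libraries lie at opposite ends with both KO DNMT3A libraries between them, while Ptprn2 and Glis3 have both red symbols above both blue ones.

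Genes whose expression is tied to DNA methylation were examined next. Imprinted genes, which are expressed from 1 parental allele under the control of methylated regions, had a higher mean in 26 of 29 kept genes, 17 of 29 after either scaling, and a median of 0.304, 0.113 above that of all genes. Both KO DNMT3A libraries lay above for 5 (17.2%), the same share as among all genes. Mirg, a noncoding transcript of the maternally expressed Dlk1-Dio3 region, was at 5.39 and 11.2 FPKM in KO DNMT3A and 2.46 and 3.21 in KO, the neuronatin gene Nnat at 3.05 and 3.36 against 2.15 and 0.892, and Mcts2 at 6.81 and 11.7 against 3.06 and 5.59. The other 2 were the zinc finger gene Peg3 and the growth factor receptor Igf2r. Of the germline genes that promoter methylation silences, 26 of 27 were below the filter, the highest value among them being 2.63 FPKM for Syce1 in KO replicate 2. The one kept, Xlr3a, was at 3.61 and 3.31 FPKM against 5.62 and 0.593, so its groups overlapped. Polycomb genes, the other large silencing system, had a median of 0.219. Of 27, 3 lay above (11.1%) and 1 below (3.7%), against 17.3% and 5.13% of all genes. Jarid2, which recruits Polycomb complex 2, was at 2.90 and 3 FPKM against 1.93 and 2.

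Genes of the mTOR complexes and their regulators, the pathway to which Raptor belongs, had 7 of 35 above (20%, near the 17.3% of all genes), 0 below and a median of 0.231, against 0.036 or 0.017 after scaling. Mlst8, a subunit of both mTOR complexes, was at 5.61 and 6.60 FPKM in KO DNMT3A and 2.79 and 4 in KO, and Rictor, the defining subunit of complex 2, at 8.84 and 9.32 against 6.55 and 4.82. The inhibitor Ddit4 was at 25.7 and 24.4 FPKM against 18.7 and 8.36, and the autophagy kinase Ulk1 at 4.66 and 6.26 against 3.46 and 2.64. The others above were Deptor, Nprl2 and Tti1. Without KO replicate 2 the log2 difference of Ddit4 went from 0.94 to 0.40 and that of Deptor from 0.53 to 0.03. That of Mlst8 went the other way, from 0.70 to 0.91. ATF4 targets and tRNA synthetases had a median of 0.136, which was -0.059 or -0.073 after scaling.

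Genes of the endoplasmic reticulum and its stress response had a median of 0.354 that turned to -0.676 without KO replicate 2. Of 26, 2 were above (7.69%, against 17.3% of all genes). Sel1l, an adaptor of the machinery that extracts misfolded proteins, was the member with a wide gap, at 7.88 and 9.33 FPKM in KO DNMT3A, 3.43 and 1.63 in KO and 3.38 and 5.29 in WT. Its KO DNMT3A libraries were the highest of the 6, and the log2 difference of 1.49 ± 0.52 was 1.11 without KO replicate 2. Heat shock genes had a median of 0.148 and immediate early genes 0.161, which were -0.047 or -0.042 and -0.034 or -0.019 after scaling. Antioxidant genes had a median of 0.244, nuclear-encoded respiratory chain genes 0.253 and mitochondrially encoded genes -0.209, and without KO replicate 2 these turned to -0.206, -0.275 and 0.635. Glycolysis genes had a median of 0.396, which was 0.009 without KO DNMT3A replicate 1.

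Cholesterol and fatty acid synthesis genes had 2 above (7.14%) and 3 below (10.7%) of 28, against 17.3% and 5.13% of all genes. Their median was 0.211. The sterol carrier gene Stard4 was at 4.60 and 2.50 FPKM against 1.45 and 1.32 and the desaturase Scd1 at 1.29 and 0.74 against 2.03 and 2.12. Cell cycle genes had 6 of 21 below (28.6%, against 5.13% of all genes), 1 above and a median of -0.011, and with a filter at 5 FPKM 0 of 7 lay below. The 6 were of low level. The ribonucleotide reductase Rrm2 was at 0.70 and 0.481 FPKM against 2.64 and 1.03. It passed the filter only through KO, so it could only come out lower. The helicase subunits Mcm2 and Mcm7, the kinases Cdk1 and Cdk2 and the cyclin Ccna2 had the same order. Any of these under 1 FPKM in both KO DNMT3A libraries was likewise bound by the filter to come out lower. The count of 6 is therefore not free of the filter. The cyclin Ccnd1, by contrast, was at 39.3 and 39.3 FPKM against 33.1 and 25.6. Cytosolic ribosomal protein genes had 2 above (2.67%) and 6 below (8.0%) of 75, against 17.3% and 5.13% of all genes, and a median of -0.019.

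**Figure D5:**
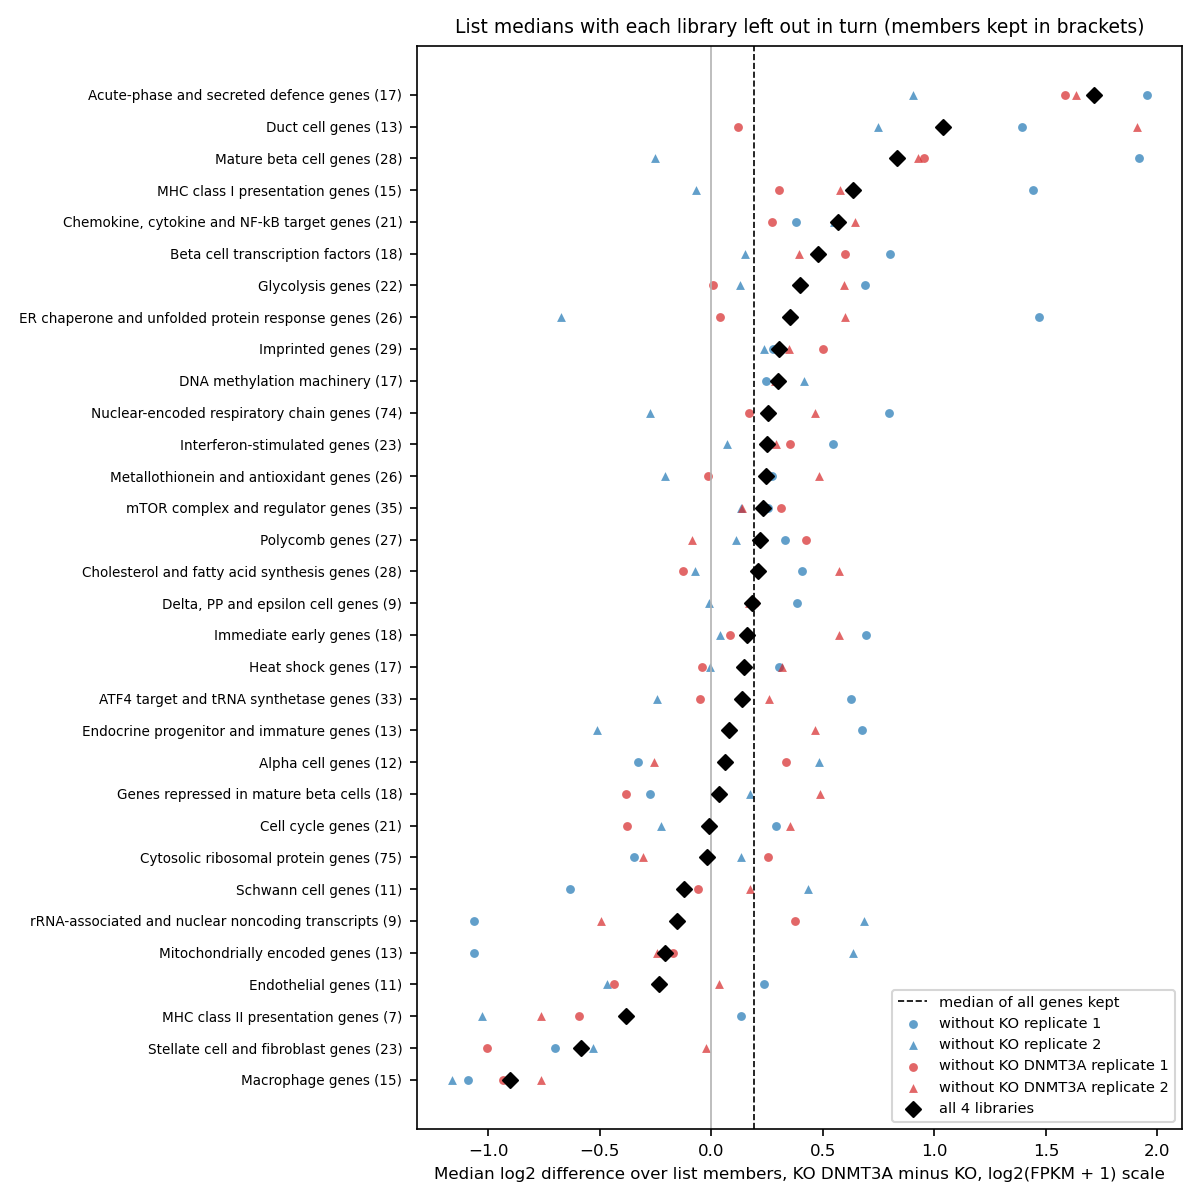
Median log2 difference of KO DNMT3A minus KO over the kept members of each list with all 4 libraries (diamonds) and with each library left out (coloured symbols); the dashed line is the median of all genes, 0.191. The defence list stays between 0.905 and 1.954 and the macrophage list between -1.164 and -0.763, while the mature beta cell and endoplasmic reticulum lists cross 0.

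Among the remaining protein-coding genes with a mean of at least 5 FPKM and the widest gaps, Pam stood out for its level. It encodes the enzyme that amidates peptide hormones in their granules, and it was at 59.2 and 78.0 FPKM in KO DNMT3A, 7.46 and 20.7 in KO and 6.21 and 60.5 in WT. KO was low in both libraries, and the log2 difference of 2.35 ± 0.70 was 3.03 without KO replicate 2 and 1.67 without KO replicate 1. Same-strand noncoding models overlap Pam in the annotation, so reads could have been split between models. The small GTPase Rac1, a regulator of actin and granule release, had the opposite order, at 5.05 and 1.96 FPKM in KO DNMT3A, 16.4 and 15.4 in KO and 18.5 and 11.9 in WT.

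The epithelial protease St14 was at 8.16 and 8.47 FPKM against 2.66 and 3.09 in KO and 9.14 and 3.89 in WT, and the tight junction protein Cgn at 17 and 11.4 against 5.70 and 2.12 in KO. Tmem41a, a membrane protein of unsettled role, was at 10.7 and 9.88 FPKM against 3.10 and 3.77, Fam89b at 10.4 and 7.57 against 0.198 and 1.81, and the ubiquitin ligase adaptor Wsb2 at 9.01 and 13.2 against 3.17 and 0.682. All 5 had both KO DNMT3A libraries above KO. Sprr1a, a cornified envelope protein, was at 39.4 and 1.11 FPKM and listed at 0 in both KO libraries, so 1 library carried its level. It also passed the filter only through KO DNMT3A, which fixed its order. Lower in both KO DNMT3A libraries were the deacetylase Hdac11 (3.73 and 1.04 FPKM against 8.41 and 7.43), Tmem158 (0.902 and 1.03 against 2.83 and 15.5), the matrix protein Olfml2a (2.43 and 2.89 against 5.41 and 9.65) and the lectin receptor Cd302 (4.56 and 4.70 against 9.01 and 8.23).

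The widest gaps in the table also included a pair that shares sequence. Aarsd1, an alanyl-tRNA editing protein (chr11:101406839-101417615, minus strand), was at 9.94 and 9.02 FPKM in KO DNMT3A, 1.86 and 0.34 in KO and 1.08 and 11.4 in WT. Gm27029 (chr11:101406664-101424796, same strand), a model that spans it, was at 0.23 and 0.395 FPKM in KO DNMT3A, 11.8 and 17.5 in KO and 5.41 and 0.454 in WT. The groups thus had opposite orders in the pair, though Gm27029 passed the filter only through KO, which fixed its order. Since the models overlap on 1 strand, reads may have been assigned to either, and both genes are uncertain for that reason. The same holds for Gm20518 (10.2 and 12.9 FPKM against 4.05 and 0), which overlaps Car15 and Dgcr2, and for Pdf (4.01 and 3.44 against 18.6 and 12.3), which overlaps Cog8.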

How the data were processed

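The authors deposited 1 table of FPKM values per gene, per the file headers, for 6 islet libraries; poly-A RNA was captured with oligo-dT beads, per the labels' protocols. HISAT2 2.0.4, StringTie 1.3.0, edgeR and mm10 are named per the submitters' processing notes, without their roles, and strand handling is not given in the sources used here. Symbols and positions came from GENCODE M21 (GRCm38) by gene identifier. Depth was inferred from single-transcript genes, whose FPKM should be whole multiples of 1 fragment. Of the 6 libraries, 84.5% to 91.7% of values up to 20 fragments were whole within 0.01; no counts were recovered for the other genes, so no count test was run, and counting error follows from the inferred depth only.

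The 4 KO and KO DNMT3A libraries entered 1 limma 3.58.1 fit (R 4.3.3, trended and robust) on log2(FPKM + 1), two-sided, with Benjamini-Hochberg adjustment over 12411 genes; differences on this scale understate the change of low genes. The filter was narrow at its edge: the second-highest value was 1.00011 FPKM in the lowest gene kept and 0.999915 in the highest gene left out. The script was tested on simulated data. The comparison, the 36 gene lists and the rules were chosen with earlier results of these data known. Genes named were Rptor, Dnmt3a and paralogs, any past the threshold, the 15 protein-coding genes per direction with a mean of at least 5 FPKM and the widest gap, the 10 per direction with the smallest p, up to 4 per list with a mean of at least 2 FPKM, and 10 islet genes fixed by name. Other names among list members (such as C3, Lyz2, Cd68, Ccl2, Iapp and Rrm2, and those below the filter) were chosen after their values were seen. Some genes that fell under the rule are not reported here. Alternatives were the pseudocount, the filter, scaling, all 6 libraries in the fit, an ordinary limma fit, a replicate block and each library left out. Sequences are from RefSeq (GRCm38.p6).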

Additional observations from a re-analysis of the deposited data

How the results depend on the processing

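The libraries are 2 per group, KO replicate 2 is insulin-poor, and the inferred depth of 780488 fragments in that library limits low genes. No gene passed limma's threshold under any alternative except without KO replicate 1, so the number of calls ran from 0 to 79 with a library left out; the lone KO library is then assumed to vary like the other group, and the named genes past the threshold were Orm1, Slpi, Sftpd, Lcn2, Lrg1, Cfb, Ins1, Ins2, Iapp, Gm20518 and Gm27029. The labels number the replicates without saying that a number marks a shared animal or batch. Across genes, the deviations of same-numbered KO and KO DNMT3A libraries from their group means had a correlation of 0.333. A fit with the replicate block gave 0 calls and 518 genes at an unadjusted p under 0.05, against 222. The 2-fold-gap counts of 107 higher and 38 lower genes became 206 and 75 with a pseudocount of 0.1 and 20 and 10 with a filter at 5 FPKM; the higher count was 36 after quantile normalization and 50 after median scaling, and with a library left out the counts ran from 247 to 1459 and from 110 to 309. The median of all genes was -0.015 and -0.004 after these scalings. In the same order, DNA methylation genes had medians of 0.096 and 0.102, delta, PP and epsilon genes -0.027 and -0.014, macrophage genes -1.120 and -1.096, imprinted genes 0.135 and 0.109 and mTOR genes 0.017 and 0.036. A pseudocount of 0.1 gave -1.122 for macrophage and 2.388 for defence genes, and a filter at 5 FPKM 2.826 for defence, 0.421 for DNA methylation, 0.360 for delta, PP and epsilon and 0.381 for cell cycle genes. Members without overlap numbered 9 (defence), 5 (NF-kB) and 5 (DNA methylation) with that filter, where fewer genes were tested, 14 for stroma after quantile normalization, and 0 or 1 for DNA methylation after quantile or median scaling. With a library left out, list medians ran from 0.905 to 1.954 (defence), 0.273 to 0.646 (NF-kB), -0.069 to 1.442 (MHC class I), -1.164 to -0.763 (macrophage), -1.007 to -0.024 (stroma), -0.466 to 0.238 (endothelial), -0.009 to 0.385 (delta, PP and epsilon), 0.245 to 0.415 (DNA methylation), 0.234 to 0.501 (imprinted), -0.086 to 0.424 (Polycomb), 0.135 to 0.313 (mTOR), -0.245 to 0.625 (ATF4), -0.676 to 1.468 (endoplasmic reticulum), 0.039 to 0.691 (immediate early) and -0.378 to 0.354 (cell cycle), and members without overlap from 10 to 15 (NF-kB), 10 to 13 (DNA methylation) and 9 to 20 (stroma). Among all genes, 33.3% to 49.2% then lay above and 18.1% to 22.4% below. Of the 125 named genes fitted, the sign turned after quantile normalization or median scaling for Col1a1 (-0.10 or -0.14), Tet2 (-0.23 or -0.19) and Etv1 (-0.03 or -0.01), and after quantile normalization for Tet3 (-0.0). With a library left out it turned for Rptor (-0.16 to 0.70), Tet2 (-0.11 to 0.12), Tet3 (-0.16 to 0.59), Ins1 (-0.56 to 7.60), Ins2 (-0.89 to 6.41), Iapp (-0.88 to 5.15), Ucn3 (-0.45 to 2.79), Slc2a2 (-0.50 to 2.28), Ldha (-1.44 to 0.60), Gcg (-0.48 to 0.11), Ppy (-0.67 to 0.46), C1qa (-1.41 to 0.74), Cd14 (-0.78 to 2.32), Xlr3a (-0.57 to 1.49) and Col1a1 (-0.43 to 0.55). Apart from the fewer genes or libraries that a setting leaves, the cause was not tested.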
